A study of Mus musculus with 72 samples.

Results

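Arntl, Clock, Npas2 and Rora are the genes for the activating proteins of the circadian clock measured here, and they were taken by symbol from the gene count tables of liver and suprachiasmatic nucleus (SCN). They are 4 genes of the 24091 present in the tables, of which 22823 were in the liver table and 15759 in the SCN table. Each had 1 entry per table (Arntl ENSMUSG00000055116.9, Clock ENSMUSG00000029238.12, Npas2 ENSMUSG00000026077.16, Rora ENSMUSG00000032238.18), and all 4 passed the filter on low counts in both tissues. The mice were C57BL/6 and ate either a diet lacking methionine and choline (MCD), which is used to produce fatty liver disease in mice, or an isocaloric control diet, for 11 days. They spent 10 days under a cycle of 12 h light and 12 h dark and the last day in constant darkness, when they were killed every 4 h from circadian time (CT) 0 to 20. No group carried a genetic change, and all were single-housed; the protocol text gives an age of 8 to 12 weeks and speaks of males only. The sample labels differ from that text: split by tissue, diet and time there are 24 groups, and every one holds 2 libraries labelled male and 1 labelled female. The labels do not say which liver and SCN libraries came from 1 mouse.

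The clock turns on a feedback loop. BMAL1, the product of Arntl, pairs with CLOCK or with its close relative NPAS2, binds E-box elements and drives the Per, Cry, Nr1d1, Nr1d2 and Dbp genes, whose PER and CRY products then inhibit the pair. In another loop the nuclear receptor RORA activates, and the REV-ERB receptors made from Nr1d1 and Nr1d2 repress, genes that carry ROR response elements, among them Arntl, Clock, Npas2 and Cry1. The SCN is the brain's master pacemaker, while the liver clock is set by the SCN and by feeding.

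The RefSeq windows that run from 250 bases before to 50 after a gene's start (build GRCm38.p6) are shown for the ROR response element, since 3 of the genes are textbook targets of that element. A search on both strands for AGGTCA, the core of the element, found it in 1 of the 2 Arntl windows and 1 of the 3 Clock windows, and not in the windows of Npas2 and Rora. AGGTCA was present in 5340 of all 32851 windows (16.3%), so a match says little by itself. The longer ROR element consensus was present in 126 windows (0.384%), of which 1 was the Arntl window chr7:113207261-113207560 on the plus strand. That window held the letters AAAGTAGGT 2 times, at positions 113207492 to 113207521 and 113207528 to 113207557 of chromosome 7 with their flanks. Only 60 windows (0.183%) held these letters, which were chosen after the sequence was seen. The capitals mark the match, and the downstream copy runs on into the AGGTCA core.
Arntl upstream copy: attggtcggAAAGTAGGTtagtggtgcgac
Arntl downstream copy: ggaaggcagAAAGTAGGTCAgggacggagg
The E-box letters CACGTG were in no window of the 4 genes and in 2349 of all windows (7.15%). A match describes letters only, and no match says only that these letters are not in this window.

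All 72 libraries were poly-A RNA-seq. Liver libraries held 52600280 to 86740552 counts (median 64360021) and SCN libraries, cut by laser from stained brain sections, 23347789 to 79812461 (median 57026932). Levels are in counts-per-million (CPM) on library sizes scaled within each tissue by edgeR's trimmed mean of M values, so CPM of the tissues are on separate scales, and a mean is given with its SD over 3 libraries unless n is stated. All 6 hepatocyte markers were present in liver (summed 81800 to 121000 CPM on control, 57200 to 122000 on MCD). All 7 SCN neuron markers were present in the SCN samples (1630 to 3220 CPM on control, 1730 to 4210 on MCD), where 4 of 6 hepatocyte markers and all markers of liver macrophages and liver endothelium were not in the table. Oligodendrocyte markers reached a summed 1820 CPM there. A control CT08 male of the liver, library a, stood apart: its score over 200 genes that separate the diets was 0.63, within the MCD range of 0.31 to 1.62 and outside the range of -1.21 to -0.85 of the other 17 control livers. Without it, every liver and tissue test of the 4 genes kept its side of the threshold in the models of all libraries. Liver libraries also fell into 21 with low and 15 with high mt-Nd6, a mitochondrial transcript. The high ones were 10 control and 5 MCD, so this division was uneven between the diets. With that division as a term in the model every call of the 4 genes kept its side of the threshold. On MCD the liver's summed macrophage markers ran from 254 to 511 CPM against 198 to 452 on control, and erythrocyte markers from 61.8 to 201 against 83.6 to 320; their part in the results was not tested. In these bulk samples, fewer cells of a type and less RNA per cell cannot be told apart.

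In liver, Arntl, Clock and Npas2 were high around the end of the subjective night and low around CT08 to CT12 on both diets, while Rora varied little. On control diet, Arntl at the 6 times in turn was 34.2 ± 0.233, 19.7 ± 10.9, 2.05 ± 0.952, 3.28 ± 2.28, 23.3 ± 1.85 and 36.3 ± 3.74 CPM from CT00 to CT20. The MCD values were 33.4 ± 2.67, 7.14 ± 1.45, 0.965 ± 0.117, 5.00 ± 2.84, 33.2 ± 1.96 and 46.0 ± 2.51 CPM from CT00 to CT20. The order of times was the same on both diets (CT20, CT00, CT16, CT04, CT12, CT08 from high to low), and the mean at CT20 was 17.7-fold that at CT08 on control and 47.6-fold on MCD. Neighbours in that order overlapped at CT20 and CT00, CT16 and CT04, and CT12 and CT08 on control, and at CT00 and CT16, and CT04 and CT12 on MCD.

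Clock, whose protein is the usual partner of BMAL1, kept a higher floor than Arntl. On control it was 93.2 ± 17.4, 66.9 ± 16.2, 38.0 ± 9.30, 36.1 ± 4.16, 68.9 ± 8.32 and 75.7 ± 7.61 CPM from CT00 to CT20. On MCD it was 87.5 ± 6.81, 55.7 ± 5.44, 32.8 ± 2.42, 37.8 ± 9.01, 72.3 ± 4.19 and 80.7 ± 4.90 CPM at the same times. Its highest mean, at CT00 on both diets, was 2.58-fold its lowest on control (CT12) and 2.67-fold on MCD (CT08). Groups next to each other in the order overlapped in 4 of 5 cases on control and in 2 of 5 on MCD.

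Npas2, the relative of Clock, had the widest range of the 4 genes in liver. On control it was 23.0 ± 7.86, 8.08 ± 4.5, 0.272 ± 0.183, 0.114 ± 0.0988, 2.93 ± 4.25 and 14.6 ± 7.32 CPM from CT00 to CT20. In MCD livers it was 20.9 ± 1.24, 1.47 ± 0.441, 0.389 ± 0.121, 0.0795 ± 0.0720, 7.42 ± 3.90 and 27.8 ± 5.16 CPM at the same times. The highest mean moved from CT00 on control to CT20 on MCD, though both control groups overlapped. At CT12 the libraries held 10, 11 and 0 Npas2 counts on control and 0, 8 and 9 on MCD, so the ratios of highest to lowest mean, 202 and 350, rest on few counts. No neighbouring groups overlapped in the order of the MCD times, against all 5 neighbouring pairs on control.

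Per base of exon (GENCODE M21 exon unions), the mean of Clock was above that of Npas2 at every time, by a ratio of means that ran on control from 1.42 at CT00 to 111 at CT12 and on MCD from 1.01 at CT20 to 166 at CT12. These partners of BMAL1 were thus nearest each other in level per length at CT20 and CT00. In 1 of 3 libraries at control CT00 and in 1 of 3 at MCD CT20 Npas2 was the higher, and at all other times Clock was higher in 3 of 3. Averaged over all control livers, the level per kilobase was highest for Rora (6.25 CPM per kilobase), then Clock (4.60), Arntl (2.63) and Npas2 (1.70).

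Rora, the receptor that activates at ROR elements, was 82.5 ± 2.55, 82.0 ± 26.1, 69.0 ± 15.2, 77.4 ± 4.07, 81.1 ± 21.7 and 98.1 ± 16.5 CPM from CT00 to CT20 on control. On MCD it was 80.4 ± 15.4, 68.5 ± 8.46, 59.9 ± 7.92, 61.7 ± 13.5, 87.3 ± 6.55 and 94.8 ± 4.59 CPM. Every pair of neighbours in its order of times overlapped on both diets. The highest and lowest groups, CT20 and CT08, also overlapped on control (ratio 1.42) and did not on MCD (ratio 1.58).

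**Figure D1:**
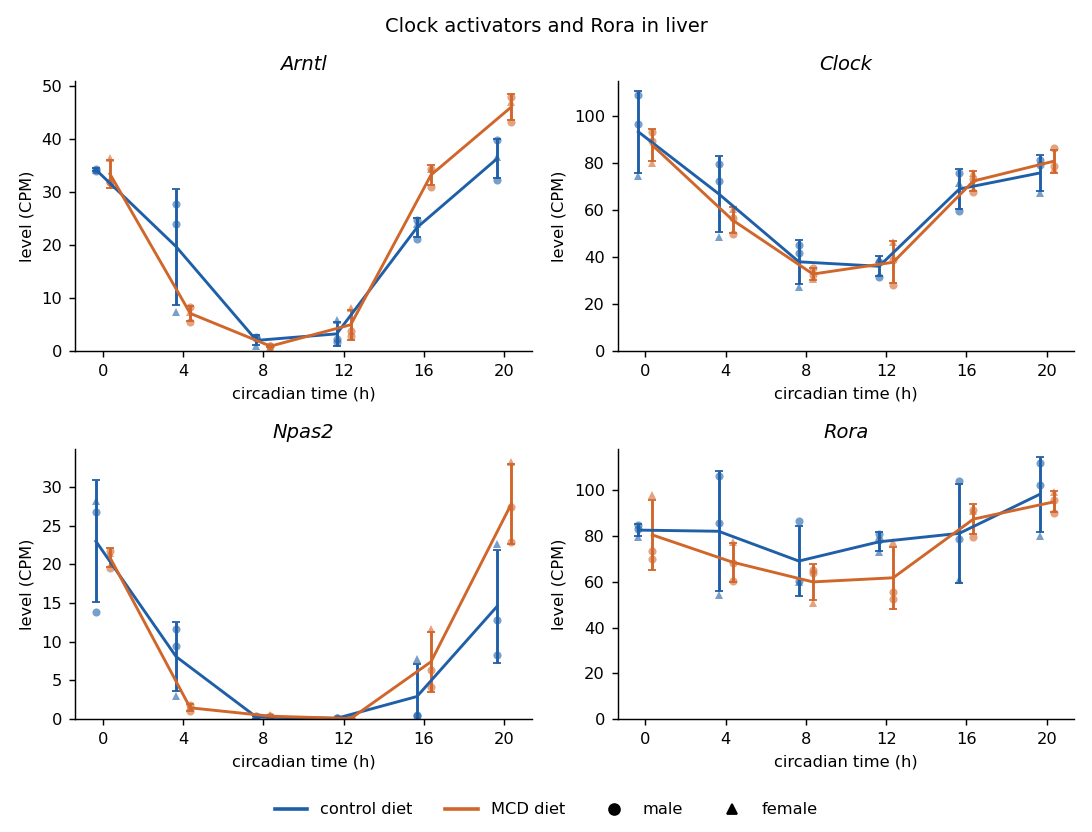
Levels of Arntl, Clock, Npas2 and Rora in liver (CPM, vertical axis) against circadian time (h, horizontal axis) by diet, with 1 symbol per library (circle male, triangle female) and lines and bars for group mean and SD of 3 libraries. Arntl and Npas2 drop close to 0 at CT08 and CT12 on both diets, and at CT04 the MCD means lie below the control means.

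The 24 h rhythm was tested with edgeR's quasi-likelihood test of the cosine and sine component (2 degrees of freedom), with Benjamini-Hochberg adjustment over 20249 genes. On control, 17.8% of all genes passed, and so did Arntl (adjusted p = 3.25e-08), Clock (9.73e-07) and Npas2 (4.39e-07), while Rora did not (0.247). On MCD, 28.2% of all genes passed, and so did all 4 members: Arntl (2.36e-09), Clock (2.36e-07), Npas2 (1.34e-07) and Rora (0.00803). The Rora call on MCD was lost in the test of any difference between the times (adjusted p = 0.0602, edgeR; 18.5% of all genes passed) and without the libraries of replicate 1 (0.177) or replicate 2 (0.0574). An effect that passed on MCD only is not shown to differ between diets, and the test of that difference for Rora gave an adjusted p of 0.712.

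A fitted 24 h cosine gave the time of the peak and the range from trough to peak in log2 CPM. For Arntl the peak was at 21.6 ± 0.43 h (SE) on control and 20.3 ± 0.36 h on MCD, a difference of -1.30 ± 0.56 h. For Npas2 it was at 23.1 ± 0.39 h and 21.6 ± 0.38 h, a difference of -1.53 ± 0.55 h. For Clock it was at 22.2 ± 0.48 h and 21.3 ± 0.44 h, a difference of -0.89 ± 0.65 h. The 3 genes that passed on both diets thus had earlier fitted peaks on MCD. Over the 2271 liver genes called rhythmic on both diets, 79.8% had an earlier fitted peak on MCD and the median difference was -1.74 h (quartiles -3.03 and -0.35 h). Rora gave -0.43 ± 1.9 h, which leaves its direction unresolved. Ranges were 4.55 ± 0.51 on control and 5.40 ± 0.51 on MCD for Arntl, 1.37 ± 0.17 and 1.49 ± 0.17 for Clock, 8.04 ± 0.82 and 8.12 ± 0.82 for Npas2, and 0.38 ± 0.16 and 0.69 ± 0.16 for Rora, all in log2 units. The largest difference in range, 0.85 ± 0.72 for Arntl, was close to its standard error.

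**Figure D2:**
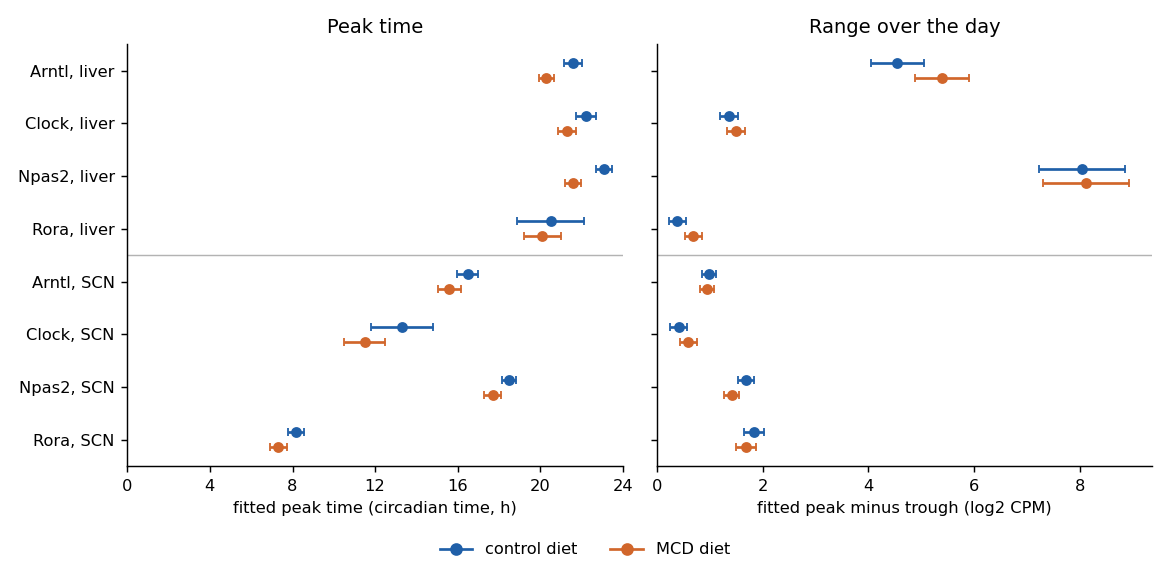
Fitted peak time (circadian time in h, left) and range from trough to peak (log2 CPM, right) of each gene in each tissue and diet, with bars of 1 SE from a cosine fitted to 18 libraries per diet. In liver the MCD points of Arntl, Clock and Npas2 lie earlier than the control points, and the SCN ranges of these genes are smaller than the liver ranges.

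The test of the diet difference in the 24 h component, again edgeR's quasi-likelihood test with Benjamini-Hochberg adjustment, passed for 4.87% of all liver genes. Of the members Arntl passed (adjusted p = 0.0269), and Npas2 (0.133), Clock (0.512) and Rora (0.712) did not. The Arntl call was kept without the control CT08 library a (0.0384). It was lost in the test of any diet difference over the times (0.121; 0.909% of all genes passed), without the CT08 libraries that carry no number (0.0768), without the libraries of replicate 1 (0.376) or replicate 2 (0.437), and without any of 4 single libraries. These were control CT04 male 1 (0.0545), control CT04 male 2 (0.0640), control CT16 male 1 (0.0539) and MCD CT04 male 2 (0.0597). For Npas2 the call depended on the control CT16 female: without it the adjusted p was 0.00527.

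Averaged over the times, the level of none of the 4 genes passed the diet test in liver, where 46.6% of all genes did. The log2 difference, MCD minus control, was -0.19 ± 0.17 (SE) for Arntl (adjusted p = 0.359, edgeR), -0.05 ± 0.07 for Clock (0.589), -0.04 ± 0.34 for Npas2 (0.945) and -0.12 ± 0.08 for Rora (0.243). The value of Clock depends on the scaling: with library totals alone, which moved the median of all genes from 0.02 to 0.27, it was 0.20 (adjusted p = 0.0195, edgeR), below that shift.

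At single times, members passed at CT04 only, where Arntl and Npas2 fell on MCD; of all genes 12.6% passed at CT00, 15.2% at CT12, 12.5% at CT16, 11.3% at CT20 and 1.30% at CT08. At CT04 18.2% of all genes passed, 8.71% of all genes in that direction. The Arntl level at CT04 was 23.9 and 27.8 CPM in control males and 7.39 in the control female, against 8.43 and 5.57 CPM in MCD males and 7.41 in the MCD female. The control males were thus high and the control female lay among the MCD libraries, so the groups overlapped. The log2 difference was -1.48 ± 0.41 (adjusted p = 0.0130, edgeR's quasi-likelihood test, n = 3 per group). The Npas2 level was 9.46 and 11.7 CPM in control males, 3.06 in the control female, 1.89 and 1.01 in MCD males and 1.52 in the MCD female. Here the groups did not overlap, and the log2 difference was -2.57 ± 0.72 (adjusted p = 0.0152, edgeR). Clock (-0.25 ± 0.17, 0.347) and Rora (-0.25 ± 0.20, 0.440) did not pass at CT04.

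Both CT04 calls rest on few libraries. That for Arntl was lost without control male 1 (adjusted p = 0.0589, edgeR), control male 2 (0.0913) or MCD male 2 (0.0550). That for Npas2 was lost without control male 2 (0.0756), MCD male 2 (0.0542) or the MCD female (0.0578). Leaving out all libraries of replicate 1 or 2 ended both calls as well, with adjusted p of 0.241 and 0.305 for Arntl and 0.185 and 0.226 for Npas2.

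At CT16 the Npas2 level was 0.524 and 0.440 CPM in control males and 7.84 in the control female, against 6.36, 4.17 and 11.7 CPM in the MCD males and female. The control female alone overlapped the MCD libraries. The log2 difference of 1.52 ± 0.70 did not pass (adjusted p = 0.159, edgeR), while without that female it was 3.83 (0.00195). At CT12 Arntl gave 0.60 ± 0.41 (0.354), and 1.38 (0.0436) without the control CT12 female, which held 5.90 CPM against 2.23 and 1.72 in the control males.

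With the females left out, the 24 male livers gave more calls for these genes. The diet difference over all times was -0.30 ± 0.08 for Arntl (adjusted p = 0.00799, edgeR), -0.18 ± 0.06 for Clock (0.0274) and -0.32 ± 0.06 for Rora (0.00121), while Npas2 did not pass (1.000); 38.8% of all genes passed, and 18.1% of all genes passed with a lower level. At CT04 all 4 genes fell in males, with log2 differences of -1.89 for Arntl (adjusted p = 1.59e-04, edgeR), -2.87 for Npas2 (0.00361), -0.52 for Clock (0.0309) and -0.59 for Rora (0.0286). At that time 12.1% of all genes passed, 6.09% of all genes with a lower level. Males also gave calls for Arntl at CT08 (-1.34, adjusted p = 0.0131, edgeR, where 0.268% of all genes passed) and at CT12 (0.78, 0.0292), for Rora at CT12 (-0.56, 0.0399), where 9.91% passed, and for Npas2 at CT16 (3.43, 0.00417), where 4.76% passed. The difference in rhythm passed in males for Arntl (4.88e-04) and Npas2 (0.00533), and not for Clock (0.145) or Rora (0.735), against 2.66% of all genes. Without control CT08 library a, which leaves 1 control male at CT08 that is assumed to vary like the others, each of these male calls held. Arntl at CT08 was then -1.25 (adjusted p = 0.0306, edgeR), the diet effects were -0.28 for Arntl (0.0150), -0.17 for Clock (0.0437) and -0.36 for Rora (1.07e-04), and the difference in rhythm gave 6.33e-04 for Arntl and 0.00373 for Npas2. Whether the sexes differ in these effects was tested over the times only, by the sex by diet term.

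That term, the diet difference in females minus that in males, passed for Rora and for none of the other 3 genes. In control livers Rora was 88.5 ± 14.8 CPM in males (n = 12) and 67.9 ± 11.1 in females (n = 6), and on MCD 72.1 ± 14.2 in males (n = 12) and 82.2 ± 18.1 in females (n = 6). The lowest, median and highest values were 60.4, 85.1 and 112 CPM in control males and 52.6, 68.9 and 95.5 in MCD males. In females they were 54.3, 66.8 and 80.0 CPM on control and 50.8, 84.1 and 99.0 on MCD, so all groups overlapped when the times were pooled. The MCD mean was above the control mean at 5 of 6 times in females and at 0 of 6 in males. The log2 term was 0.57 ± 0.14 (adjusted p = 0.0298, edgeR's quasi-likelihood test), and 0.61 (0.0104) without control CT08 library a. The term passed for 1.77% of all genes, and 0.914% of all genes passed with a term above 0. For Clock it was 0.34 ± 0.14 (0.275), for Arntl 0.40 ± 0.36 (0.740) and for Npas2 -0.11 ± 0.71 (0.979).

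The Rora term lay between 0.48 and 0.67 without any single library and without replicate 1 or 2; replicate 3 holds the females, so the term could not be fitted without it. Its call was lost without any of 6 females: control CT04 (0.0907), CT16 (0.0762) and CT20 (0.0641), and MCD CT00 (0.0810), CT04 (0.0636) and CT12 (0.0670), and also without all libraries of replicate 1 (0.234) or 2 (0.389). Each time and diet holds 1 female, so the spread among females of 1 group was not measured. Every female carries replicate number 3 and no male does, so sex cannot be told apart from that number. Pooled over diets and times, no member passed the sex difference in liver, which 9.44% of all genes passed, and Npas2 gave the largest value (female minus male 0.58 ± 0.34, adjusted p = 0.355, edgeR).

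**Figure D3:**
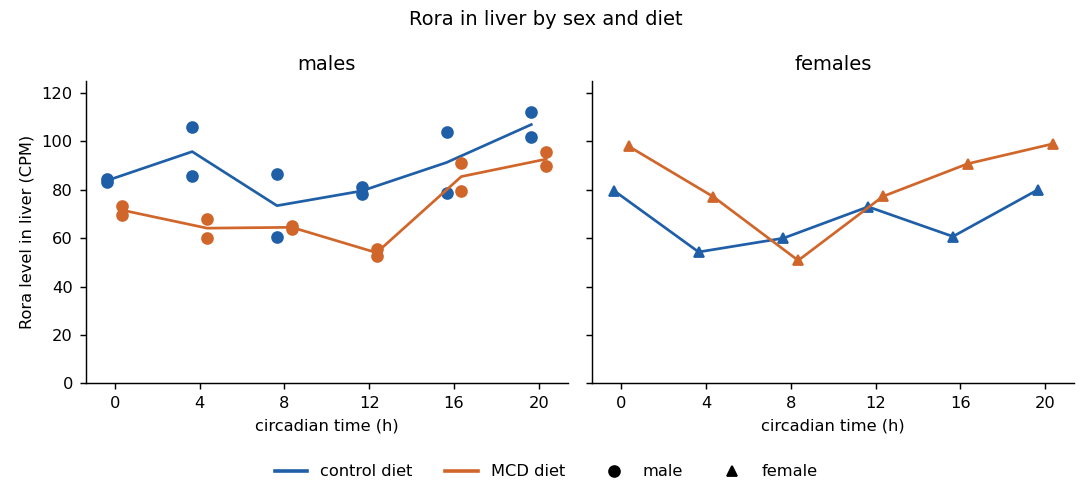
Rora level in liver (CPM) against circadian time (h) in males (left, 2 libraries per group) and females (right, 1 library per group) by diet, with 1 symbol per library and lines through the means. In males the MCD mean lies below the control mean at 6 of 6 times, and in females it lies above it at 5 of 6.

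In the SCN all 4 genes were present at every time, and Rora had the highest levels, with a maximum in the subjective day. On control it was 135 ± 14.5, 306 ± 81.9, 355 ± 59.4, 345 ± 70.4, 132 ± 17.1 and 127 ± 21.1 CPM from CT00 to CT20. On MCD it was 207 ± 4.47, 331 ± 19.4, 374 ± 31.0, 352 ± 53.7, 138 ± 22.9 and 136 ± 14.6 CPM at the same times. The order was CT08, CT12, CT04, CT00, CT16 and CT20 on both diets. The 3 high times overlapped their neighbours, CT04 did not overlap CT00, and the highest mean was 2.80-fold the lowest on control and 2.76-fold on MCD.

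Arntl in the SCN was highest from CT12 to CT20. On control it was 51.1 ± 1.99, 40.7 ± 9.43, 43.8 ± 1.89, 72 ± 2.44, 73.8 ± 8.92 and 71.4 ± 9.58 CPM from CT00 to CT20, and on MCD 48.3 ± 0.878, 41.0 ± 4.10, 47.3 ± 0.604, 77.7 ± 21.0, 73.2 ± 11.6 and 67.0 ± 4.71 CPM. The highest mean was 1.81-fold the lowest on control and 1.90-fold on MCD, far less than in liver. CT12, CT16 and CT20 overlapped one another in the order, as did CT04 and CT08 on control and CT00 and CT08 on MCD.

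Npas2 in the SCN was 13.2 ± 3.20, 9.05 ± 1.16, 7.25 ± 0.542, 11.6 ± 1.44, 22.3 ± 2.13 and 22.2 ± 2.15 CPM from CT00 to CT20 on control. On MCD it was 12.6 ± 0.625, 10.5 ± 1.68, 8.37 ± 1.6, 14.3 ± 2.01, 24.3 ± 2.58 and 19.4 ± 2.03 CPM. It was highest at CT16 and CT20, which overlapped on control and not on MCD, and lowest at CT08, with ratios of 3.08 on control and 2.90 on MCD. Clock was 82.2 ± 11.4, 102 ± 17.8, 108 ± 15.0, 115 ± 16.8, 117 ± 15.0 and 110 ± 14.0 CPM on control. Clock on MCD was 87.3 ± 19.6, 98.7 ± 18.9, 113 ± 10.7, 140 ± 6.96, 107 ± 29.2 and 96.8 ± 15.4 CPM. All neighbouring times overlapped for Clock on control, and on MCD CT12 alone stood above the next group, CT08. Per base, Clock exceeded Npas2 by 1.73 to 5.18 times on control and 1.54 to 4.71 times on MCD.

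**Figure D4:**
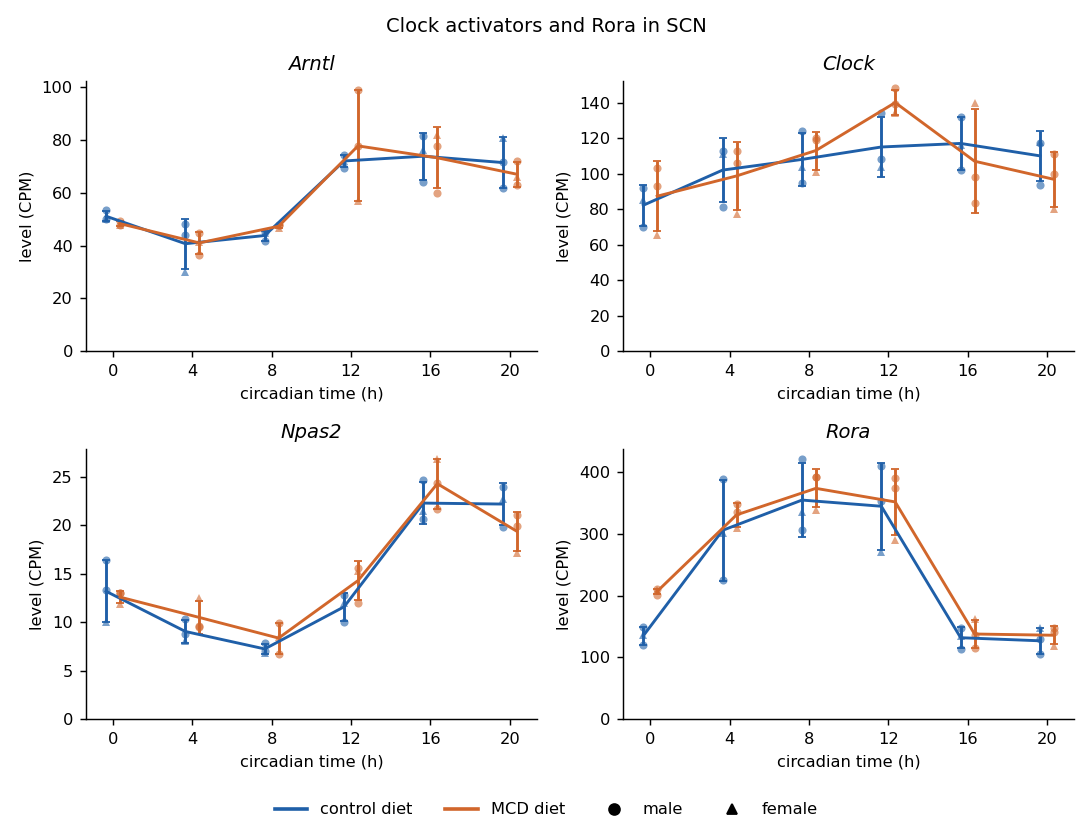
Levels of Arntl, Clock, Npas2 and Rora in the SCN (CPM, vertical axis) against circadian time (h, horizontal axis) by diet, with 1 symbol per library (circle male, triangle female) and lines and bars for group mean and SD of 3 libraries. Rora is high from CT04 to CT12, Arntl from CT12 to CT20 and Npas2 at CT16 and CT20, on both diets.

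In the same 24 h test (edgeR's quasi-likelihood test, Benjamini-Hochberg adjustment over 15759 genes), Arntl (adjusted p = 3.95e-06), Npas2 (9.02e-10) and Rora (2.43e-10) passed on control and Clock (0.152) did not; 15.1% of all genes passed. On MCD, 16.1% of all genes passed, and so did Arntl (5.49e-06), Npas2 (4.30e-08), Rora (1.68e-09) and Clock (0.0196). The Clock call was lost in the test of any difference between the times (0.0974; 9.32% of all genes passed), without the MCD CT00 female (0.101), and without all libraries of replicate 2 (0.123) or 3 (0.176). Peaks on control and MCD were at 16.5 ± 0.51 and 15.6 ± 0.54 h for Arntl, 18.5 ± 0.34 and 17.7 ± 0.40 h for Npas2, 8.18 ± 0.39 and 7.32 ± 0.42 h for Rora, and 13.3 ± 1.5 and 11.5 ± 1.0 h for Clock. Rora thus peaked in the subjective day, before Arntl and Npas2. Ranges on control were 0.99 ± 0.13 for Arntl, 1.69 ± 0.15 for Npas2, 1.83 ± 0.19 for Rora and 0.41 ± 0.16 for Clock in log2 units.

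The diet had no detected effect on the 4 genes in the SCN. No member passed the diet test over all times, which 0.0635% of all genes passed, nor the test of the difference in rhythm, which 0.0127% passed (adjusted p = 1.00 for each member, edgeR; unadjusted p of 0.438 for Arntl, 0.434 for Clock, 0.0821 for Npas2 and 0.122 for Rora). The fitted peaks on MCD minus control were -0.81 ± 0.74 h for Arntl, -1.78 ± 1.8 h for Clock, -0.79 ± 0.53 h for Npas2 and -0.86 ± 0.57 h for Rora. All 4 differences had the same sign and none reached 2 standard errors. Over the 1556 SCN genes called rhythmic on both diets, 84.0% had an earlier fitted peak on MCD, with a median of -0.97 h (quartiles -1.79 and -0.33 h).

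The largest diet difference among the members in the SCN was that of Rora at CT00. The control libraries held 149, 120 and 136 CPM and the MCD libraries 211, 202 and 209 CPM, so the groups did not overlap. The log2 difference was 0.62 ± 0.17 (unadjusted p = 9.52e-04), which did not pass after adjustment (0.50, edgeR's quasi-likelihood test), where 0.00635% of all genes passed. None passed at any other time either, against 0.0444% of all genes at CT04, 0.00635% each at CT16 and CT20, and 0 at CT08 and CT12 by edgeR (282 and 328 genes at an unadjusted p under 0.05), with 4 at each of these by DESeq2. Averaged over the times, Rora gave 0.17 ± 0.07 (0.866), Npas2 0.10 ± 0.07 (1.00), Arntl 0.01 ± 0.06 (1.00) and Clock 0.01 ± 0.07 (1.00). No member passed the sex difference (9.89% of all genes did) or the sex by diet term in the SCN, which 0 of all genes passed by edgeR (826 at an unadjusted p under 0.05) and 1 by DESeq2.

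Liver and SCN were compared on control in a model of the 14486 genes common to both, with all libraries scaled together, so its differences are not those of the CPM above. The level over the day, SCN minus liver, was higher in the SCN for Arntl (log2 1.25 ± 0.14, adjusted p = 1.31e-11, edgeR), Npas2 (1.65 ± 0.25, 4.05e-08) and Rora (0.39 ± 0.09, 5.92e-05), against 46.3% of all genes called higher and 90.4% called in either direction. Clock gave -0.16 ± 0.08 (0.0629), while its CPM scaled within each tissue had a mean of 63.2 in control liver and 106 in control SCN. It passed without the females (-0.25, adjusted p = 0.00178, edgeR) and without any of 9 single control libraries (0.0375 to 0.0484), namely liver females of CT00, CT04 and CT08, liver male 2 of CT12 and of CT16, SCN male 1 of CT00, CT12 and CT16, and SCN library a of CT08. With library totals alone it became 0.54 (1.26e-07), a scaling that moved the median of all genes from 0.04 to 0.75. The direction for Clock between the tissues thus depends on the scaling, and its value lay below the median of all genes under both of these. Per kilobase, the order in the control SCN was Rora (17.8 CPM per kilobase), Arntl (7.82), Clock (7.69) and Npas2 (2.98), and the ranges of Arntl and Clock overlapped. These values divide by all exon bases. The last annotated piece of Rora held 86.3% of its reads in the SCN and 55.7% in liver. The part of such coverage in the levels was not tested.

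The 24 h component differed between the tissues for all 4 genes, as it did for 17.0% of all genes (edgeR's quasi-likelihood test; adjusted p = 7.43e-12 for Arntl, 4.54e-07 for Clock, 4.96e-11 for Npas2 and 1.21e-09 for Rora). The SCN peak minus the liver peak was -5.11 ± 0.67 h for Arntl, -4.63 ± 0.51 h for Npas2 and -8.89 ± 1.6 h for Clock on control. For Rora it was 11.65 ± 1.7 h, close to opposite times of day, though the liver rhythm of Rora did not pass on control, nor did the SCN rhythm of Clock. On MCD the differences were -4.61 ± 0.65, -3.89 ± 0.56, -9.78 ± 1.1 and 11.22 ± 0.99 h for Arntl, Npas2, Clock and Rora. The range in the SCN minus that in liver was -3.56 for Arntl, -6.35 for Npas2, -0.97 for Clock and 1.45 for Rora in log2 units on control.

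Exon bin counts, the reads over each annotated piece of exon numbered along the genome, were compared with edgeR's test of differential exon usage. By diet, no member passed in liver (34 files, adjusted p = 1.00 for each; 6.17% of all genes passed) or in the SCN (lowest adjusted p 0.635, for Arntl; 0.708% passed). Between tissues all 4 passed, as did 75.5% of all genes: Arntl (3.94e-05), Clock (8.29e-14), Npas2 (4.88e-08) and Rora (1.97e-24). The 3′-most bins of Rora, Clock and Arntl were picked for naming after their values were seen. In Rora the last bin, bin 22, held 55.7% ± 2.81 of the gene's reads over 34 liver files and 86.3% ± 4.66 over 36 SCN files, while bins 13, 12 and 11 gave log2 differences of -2.60, -2.37 and -2.28 in the SCN relative to the gene. Clock lies on the minus strand, so its bin 1 is the 3′ end, and that bin held 6.33% ± 0.952 of the reads in liver and 23.7% ± 6.33 in the SCN. At the other end of Clock, bins 33 and 32 gave -2.40 and -1.96. In Npas2 bins 1, 3 and 11 gave -2.96, -2.16 and -1.77, and in Arntl bins 3, 24 and 5 gave -1.54, -1.35 and -1.23 and the last, bin 30, gave 0.70. The 3′-most bins of Arntl, Clock and Rora were thus relatively higher in the laser-cut SCN samples. The bins named at the 5′ end of Clock were relatively lower, as were bins 3 and 5 of Arntl and bins 1 and 3 of Npas2, near the 5′ ends of these genes. The 3′-most bin of Npas2, bin 24, gave 0.35 and did not pass (adjusted p = 0.463, edgeR). Npas2 bin 2, between bins 1 and 3, gave 1.32 and did not pass (adjusted p = 0.0892, edgeR). The part of read coverage along transcripts in these tissue differences was not tested.

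**Figure D5:**
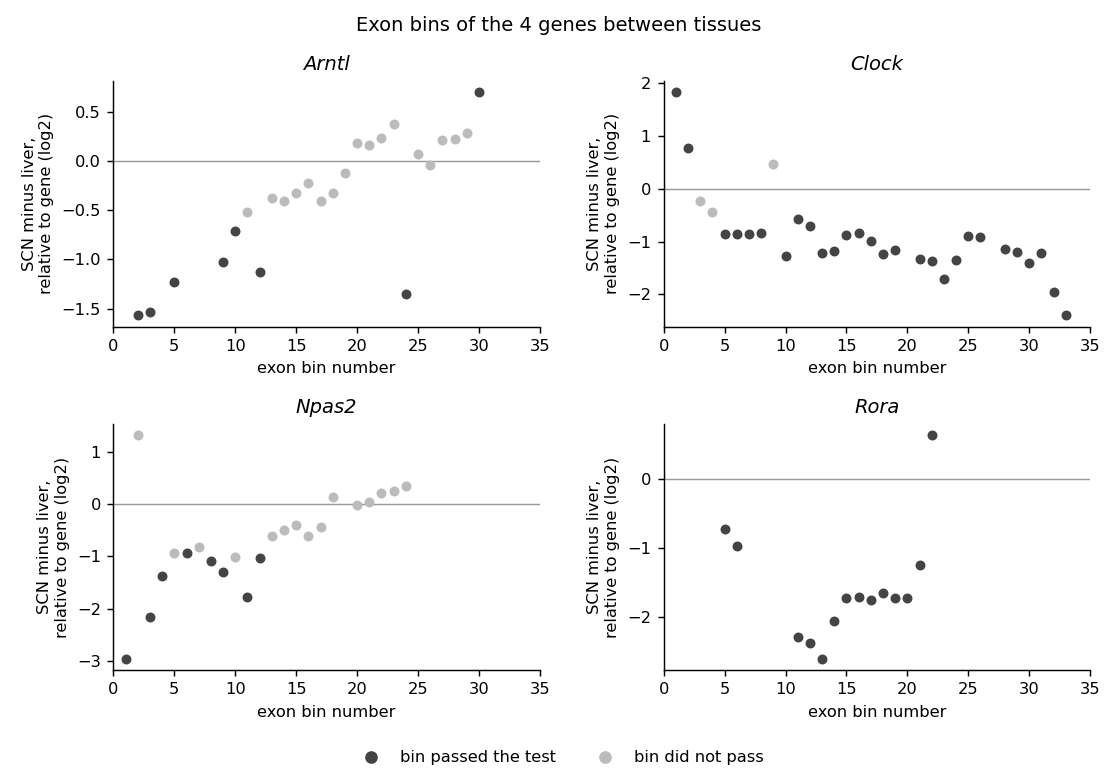
Difference in exon bin usage, SCN minus liver relative to the whole gene (log2, vertical axis), along the bin number (horizontal axis) for the 4 genes, with dark points for bins that passed. In Rora only the last bin lies above 0, and in Clock, which is on the minus strand, bins 1 and 2 are those that passed above 0.

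The 36 libraries of a tissue span all times, both diets and both sexes, so a correlation across them takes in these differences. The genes most like each member were ranked by Pearson's r of log2 CPM over the 36. In liver these were Chka (r = 0.957), Clpx (0.937) and Lgalsl (0.933) for Arntl, Selenoi (0.949), Clpx (0.947) and 4932438A13Rik (0.913) for Clock, Clpx (0.921), Asap2 (0.911) and Stra6l (0.908) for Npas2, and Zfp740 (0.794), Ccng2 (0.782) and Jmjd1c (0.781) for Rora. Among the members, Arntl and Clock had r = 0.931 in liver, Clock and Npas2 0.859, Arntl and Npas2 0.821, Arntl and Rora 0.676, Clock and Rora 0.620, and Npas2 and Rora 0.542. In the SCN the nearest genes were Rasd1 (0.935), Map3k5 (0.898) and Lrtm2 (0.876) for Arntl, Ahctf1 (0.934), Tmem106b (0.926) and Zfp638 (0.906) for Clock, St8sia2 (0.908), Ankrd34a (0.897) and Tarsl2 (0.894) for Npas2, and St8sia6 (0.951), Spred3 (0.941) and Prkaa2 (0.935) for Rora. None of the nearest genes was shared between the tissues. Bin 1 of Clock held 12.9% to 40.3% of its reads across the SCN files, and the part of such coverage in r was not tested. In the SCN, Arntl and Npas2 had r = 0.718, Clock and Rora 0.401, Arntl and Clock 0.395, Clock and Npas2 0.084, Arntl and Rora -0.360, and Npas2 and Rora -0.764.

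Of 12 clock genes driven through E-boxes, 11 passed the liver rhythm test on control (all but Bhlhe40) and 11 on MCD (all but Hlf), and 12 of 12 passed in the SCN on each diet, beside the background shares given above. For the 11 that passed in liver on control, fitted peaks ran from 6.85 ± 0.32 h for Nr1d1 to 14.4 ± 0.59 h for Per2. These lay away from the peaks of Arntl, Clock and Npas2. Bhlhe40, which did not pass, gave 15.2 ± 1.1 h. Of the 10 called on both diets in liver all 10 peaked earlier on MCD, with a median of -1.37 h, and of the 12 in the SCN all 12 did, with a median of -0.96 h, against the shares of all genes given above (79.8% and 84.0%). Over the day on MCD in liver 3 of the 12 rose and 3 fell, against 46.6% of all genes called. Among the called genes the largest changes were those of Ciart (log2 0.80 ± 0.22, adjusted p = 0.00371, edgeR) and Per1 (0.66 ± 0.23, 0.0217), which rose, and Per3 (-0.64 ± 0.18, 0.00399) and Tef (-0.42 ± 0.09, 3.81e-04), which fell. The median of the 12 was -0.21 against 0.02 over all genes. The rhythm differed by diet for 2 of the 12, Ciart (0.0278) and Tef (0.0205), against 4.87% of all genes.

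Of 8 genes driven through ROR elements, all 8 passed the liver rhythm test on each diet, against 17.8% of all genes on control and 28.2% on MCD. In the SCN 5 of the 7 tested passed on control and 4 on MCD, against 15.1% and 16.1%. Of those called on both diets, 7 of 8 had an earlier fitted peak on MCD in liver (median -2.07 h) and 3 of 4 in the SCN (median -0.82 h), shares near the 79.8% and 84.0% of all genes. The exceptions were Elovl5 in liver (4.63 ± 0.99 h) and Por in the SCN (0.77 ± 1.3 h). Their rhythm differed by diet in liver for 5 of 8, against 4.87% of all genes: Gys2, which makes glycogen (adjusted p = 0.00546, edgeR), Elovl5, a fatty acid elongase (0.00562), Nfil3 (0.0155), Lpin1 (0.0205) and Por (0.0405). The level over the day rose for 1 of 8 and fell for 3 of 8, a share near the 46.6% of all genes called. Among these, Por rose (0.51 ± 0.14, adjusted p = 0.00383, edgeR), and Elovl5 (-1.30 ± 0.10, 8.46e-11) and Gys2 (-0.30 ± 0.09, 0.00661) fell, with a median of -0.23 over the 8. In the SCN none of the 12 or the 7 passed the diet test or the test of the difference in rhythm. Rorb, a relative of Rora known from brain, was not tested in liver and had a mean of 194 CPM in the SCN.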

How the data were processed

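RNA-seq was measured in 72 libraries. The authors deposited whole-number counts per gene for liver and SCN and counts per exon bin per sample; per the submitters' processing notes, Trimmomatic, HISAT2, StringTie, DESeq2 and the build GRCm39 were used, with no versions, roles or order. Groups came from the sample labels. The 4 genes and the lists were chosen with earlier results of these data known. They are named in every comparison; of each list up to 4 called genes are named per test, and 3 genes by correlation; the 5 genes of the ROR element list whose rhythm differed and the exceptions in peak time were named after their values were seen. Results of 1 listed gene are not reported here.

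Counts were tested with edgeR 4.0.16 in R 4.3.3 (TMM scaling, filterByExpr with a minimum count of 10, robust quasi-likelihood F test, adjusted p under 0.05) in a model of diet and time groups with a sex term. Cosines of 24 h were fitted to log2 CPM with a prior count of 2. Exon bins were tested with edgeR's diffSpliceDGE. The 2 liver bin files that end early, those of the control CT00 males, were left out. The female alone thus stands for that group in the liver exon tests. By rank correlation with the gene table, 34 of 34 numbered SCN bin files and 32 of 32 liver files matched their own column best; with log2 counts, 32 of the 34 SCN files did. Nothing says which libraries share a mouse, so p-values measure the spread between libraries. No 2 libraries of 1 group (36 pairs per tissue) were alike within sampling noise. On simulated counts with 200 genes changed by log2 1, 98% were recovered for the liver diet effect and 91.5% for the liver rhythm difference (19871 genes). In the SCN 90.5% and 82% were (15759 genes). Unchanged genes made up 7.11% and 6.15% of these calls in liver and 5.24% and 6.82% in the SCN. For the tissue rhythm difference on control they made up 10.88%, above the threshold of 0.05. Smaller changes were not simulated. RefSeq sequence windows are on GRCm38.p6, and no coordinates were converted. Alternatives covered scaling, filter, tool (DESeq2 1.42.0), sex term, replicate block and left-out libraries.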

Additional observations from a re-analysis of the deposited data

Results flagged for a closer look

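Of the results for the 4 genes, 6 differed between groups by a test of the difference itself. Each used edgeR's quasi-likelihood test and Benjamini-Hochberg adjustment over all genes tested in that comparison. The 24 h component of Arntl in liver differed between the diets (adjusted p = 0.0269), with a fitted peak at 21.6 h on control and 20.3 h on MCD. The diet difference of Rora in liver differed between the sexes (0.0298), with a lower MCD mean in males and a higher one in females. All females are replicate 3, so sex and that number cannot be told apart. The 24 h component differed between liver and SCN on control for Arntl (7.43e-12), Clock (4.54e-07), Npas2 (4.96e-11) and Rora (1.21e-09). The liver calls of Arntl and Rora end when certain single libraries are left out, as given with them above. The 4 tissue differences kept their side of the threshold under every alternative run.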

How the results depend on the processing

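Of 5296 alternative tests of the 4 genes, 5227 kept their direction and side of the threshold, 34 lost it, 33 gained it and 2 reversed: with library totals alone Clock became 0.20 in the liver diet effect and 0.54 in the tissue level, since that scaling moves all genes. The losses and gains stand with their results, apart from a loss under the replicate block given at the end; their cause was not tested. Of 1968 fitted peaks and ranges, 1954 moved by at most 1 SE. With each library, and each replicate number, left out in turn, the genes called ranged from 565 to 3957 for the liver rhythm on control, 2448 to 6240 on MCD, 4 to 1243 for its difference, 664 to 2478 for sex, 19 to 497 for sex by diet and 761 to 8062 at single times; in the SCN from 0 to 17 for diet, 811 to 2621 for the rhythm on control, 775 to 2911 on MCD, 1 to 5 for its difference, 20 to 2377 for sex and 3 to 13 at single times; from 604 to 2798 for the tissue rhythm difference; and for exon usage by diet from 57 to 97 in SCN and 337 to 622 in liver. In tissue comparisons control libraries alone were left out singly. Tests of any difference between times called 2284 genes on control, 3746 on MCD and 184 for the difference in liver, and 1354 and 1468 in SCN. DESeq2 called 2061 for the liver rhythm difference, 733 for liver sex by diet, 44 for the SCN diet effect, 7 for the SCN rhythm difference, 1 for SCN sex by diet and 71 at single SCN times. Without the sex term, 6, 1 and 4 genes passed for the SCN diet effect, rhythm difference and single times, and library totals gave 5 at single times. Without the unnumbered libraries 4 passed for SCN diet, 1149 for SCN rhythm on control and 1 for its difference. For exon usage by diet the F test gave 47 in SCN, a minimum count of 30 gave 21 in SCN and 502 in liver, and the mt-Nd6 term 540 in liver.

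The replicate numbers were not taken to pair libraries, since no label says so and not every same-numbered pair correlated above 0.1 in its deviations. In liver 138 of 165 pairs did (mean 0.291, lowest -0.426), among them all 55 of number 3, the females (mean 0.484), and in SCN 61 of 165 did (mean 0.075, lowest -0.106); 17 of 33 and 24 of 33 correlated best with their own number. With the replicate block 651 genes passed for the liver rhythm difference (Arntl adjusted p = 0.0918, edgeR), 4 for the SCN diet effect, 1248 for the SCN rhythm on control and 1 for its difference. With 3 libraries per group, 1 of them female, small effects at single times and differences between females cannot be resolved, and Npas2 counts in liver at CT12 are too few for a diet comparison.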

Other observations

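Fitted within each sex, a choice made after seeing the data, the liver peaks of Arntl, Clock and Npas2 lay earlier in control females than in control males. For Arntl the control peak was at 22.2 ± 0.47 h (SE) in males (n = 12) and 20.4 ± 0.82 h in females (n = 6), for Clock at 22.9 ± 0.44 and 20.6 ± 0.91 h, and for Npas2 at 23.9 ± 0.40 and 22 ± 0.65 h. On MCD the sexes lay close together, at 20.4 ± 0.39 and 20.0 ± 0.76 h for Arntl, 21.5 ± 0.40 and 20.8 ± 0.96 h for Clock, and 21.8 ± 0.36 and 21.2 ± 0.84 h for Npas2. The MCD minus control difference was -1.79 ± 0.62 h in males and -0.40 ± 1.1 h in females for Arntl, -1.41 ± 0.60 and 0.19 ± 1.3 h for Clock, and -2.10 ± 0.54 and -0.79 ± 1.1 h for Npas2. In the SCN the fitted range of Clock was 0.21 ± 0.19 log2 units on control and 1.13 ± 0.19 on MCD in females (a difference of 0.91 ± 0.27), and 0.51 ± 0.17 and 0.43 ± 0.17 in males (-0.09 ± 0.25). Whether the diet difference in peak time or range itself differs between the sexes was not tested.

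A test of the 24 h component by sex with the diets pooled, also chosen after seeing the data, gave unadjusted p of 0.00725 for Npas2, 0.0295 for Clock, 0.0346 for Arntl and 0.921 for Rora (edgeR's quasi-likelihood test). None passed after adjustment (adjusted p of 0.539, 0.614, 0.628 and 0.989), and 0.00988% of all liver genes did. In the SCN the adjusted p lay between 0.486 and 0.623 and 0 genes passed by edgeR (2287 at an unadjusted p under 0.05). With libraries left out, the genes that passed this test ranged from 0 to 3 in liver and from 0 to 3 in the SCN.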
